A study of Homo sapiens with 2 samples.

Results

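The genes described here were near silent before c-Myc was released and reached a set level a day later. They are the 53 of 19096 gene symbols whose RPKM, a read density corrected for transcript length and library size, was 1 or more in high c-Myc cells and below 0.2 in low c-Myc cells. The cells were of the human B cell line P493-6, whose c-Myc transgene is kept off by tetracycline. High c-Myc cells were collected 24 h after c-Myc was released and low c-Myc cells at 0 h, with 1 library each. Both came from the same line, carried the same transgene and were grown in the same serum-containing medium. Each symbol was represented by its transcript with the highest mean RPKM, and 2 further genes that met both limits were left out by the rule. The members were thus selected on the same RPKM values that the comparison of the libraries gives. Their ratios are a description of the selection, with no test and no replicate check.

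c-Myc is a transcription factor that pairs with MAX and binds DNA at the E-box, most often the letters CACGTG, mostly near the starts of genes that are already active. It is best known for raising the output of genes for ribosomes, nucleotide synthesis and cell growth. Several of the 53 genes are best known from neurons, endocrine cells, kidney or cilia.

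By the steps between their lowest values, the depth was estimated at 105000000 reads for high and 103000000 for low c-Myc cells. The same preset range of depths was searched for both libraries, so a depth outside it could not have been found. Synthetic RNAs, added by cell number, made up 2.75% of the summed RPKM in high and 17.5% in low c-Myc cells. The cells' own genes thus had a smaller share of the sum in low c-Myc cells. Scaled to the same RPKM sum without synthetic RNAs, 41 genes met the rule, all of them members. The MYC transcript stood at an RPKM of 2358 in high and 836 in low c-Myc cells. All 6 B cell markers on the marker list were read in both libraries, with CD79A at 460 in high and 1202 in low c-Myc cells. The 4 erythroid and platelet markers summed to 0.165 in high and 0 in low c-Myc cells, and the T cell genes CD3D and CD8A were listed at 0 in both. Summed over their lists, the T cell markers stood at 1.96 in high and 12.5 in low c-Myc cells (mostly CD3E, at 1.499 in high and 8.30 in low c-Myc cells), the NK cell markers at 5.20 in high and 10.6 in low c-Myc cells, the myeloid markers at 35.6 in high and 151 in low c-Myc cells, and the fibroblast and epithelial markers at 13.1 in high and 19.3 in low c-Myc cells. Of the fibroblast and epithelial markers only PDGFRB was 2-fold lower, at 2.80 in high and 10.7 in low c-Myc cells. The other 5 were not 2-fold different, among them COL1A1 at 9.23 in high and 8.06 in low c-Myc cells. The neuron markers summed to 107 in high and 9.86 in low c-Myc cells. Of these sums the tubulin gene TUBB3 made up 99.6 in high and 8.12 in low c-Myc cells. RBFOX3 of the same list stood at 6.69 in high and 1.44 in low c-Myc cells, so 2 of its 6 markers were at least 2-fold higher, and SNAP25 and NEFL were listed at 0 in both. None of the 53 genes is on a marker list, and the part of other cells in their values was not tested. In bulk RNA, fewer cells that use a gene and less RNA per cell cannot be told apart.

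The starts of 4 of these genes are shown because the later results on promoters turn on them. NPW was the most abundant of the 53 after release, and GDF1 shares its start with CERS1. Of the 37 members with a promoter window, LRP3 and C9orf116 alone held CACGTG in the first listed one. Each run is the 300 bases from 250 before to 50 after the gene's start, in RefSeq sequence of build GRCh38.p14, 5′ to 3′ on the gene's strand. Capitals mark CACGTG, and a run with no capitals does not hold it.
NPW (chr16:2019535-2019834, plus strand): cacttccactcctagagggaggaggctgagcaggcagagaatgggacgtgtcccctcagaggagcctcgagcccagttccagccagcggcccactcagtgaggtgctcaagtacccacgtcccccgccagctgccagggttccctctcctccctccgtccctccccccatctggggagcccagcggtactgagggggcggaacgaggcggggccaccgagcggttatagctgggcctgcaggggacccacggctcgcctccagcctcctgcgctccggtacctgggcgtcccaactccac
LRP3 (chr19:33194080-33194379, plus strand): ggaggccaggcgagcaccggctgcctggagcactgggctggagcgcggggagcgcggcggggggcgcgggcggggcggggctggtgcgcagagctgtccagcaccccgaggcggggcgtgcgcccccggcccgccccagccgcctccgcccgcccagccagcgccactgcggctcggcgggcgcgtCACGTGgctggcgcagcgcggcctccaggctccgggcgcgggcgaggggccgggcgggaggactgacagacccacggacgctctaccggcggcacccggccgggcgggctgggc
C9orf116 (chr9:135499820-135500119, minus strand): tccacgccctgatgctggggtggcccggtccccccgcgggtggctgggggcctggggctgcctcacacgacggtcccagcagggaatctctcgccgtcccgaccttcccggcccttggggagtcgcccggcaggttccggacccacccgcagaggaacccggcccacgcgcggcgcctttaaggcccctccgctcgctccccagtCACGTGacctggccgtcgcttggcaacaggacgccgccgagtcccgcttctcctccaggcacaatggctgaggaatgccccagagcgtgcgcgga
GDF1 and CERS1 (chr19:18896109-18896408, minus strand): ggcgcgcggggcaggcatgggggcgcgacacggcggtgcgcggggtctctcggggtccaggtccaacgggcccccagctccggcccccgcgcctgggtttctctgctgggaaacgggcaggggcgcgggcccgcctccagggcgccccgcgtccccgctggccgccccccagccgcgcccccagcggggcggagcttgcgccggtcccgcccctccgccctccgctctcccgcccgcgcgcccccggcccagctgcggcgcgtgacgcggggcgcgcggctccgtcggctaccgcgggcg

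A near-silent start was common and a response from it was rare. Among the 19096 genes, 7492 were below an RPKM of 0.2 in low c-Myc cells. After release 5454 of these, or 72.8%, were listed at 0, and another 1715 stayed below 0.2. A further 268 genes, or 3.58%, reached between 0.2 and 1, and 55, or 0.734%, reached 1 or more, namely the 53 members and the 2 genes left out. None of the 53 was listed at 0 in low c-Myc cells, whereas 4513 of the 5454 genes at 0 after release had been at 0 before it too.

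The levels the members reached were modest. Their RPKM in high c-Myc cells had a median of 2.34 and ran from 1.02 to 25.6, against a median of 0.0975 and a range of 0.00759 to 0.196 in low c-Myc cells. Among high c-Myc values, 5 members reached 10 or more, 12 reached 5 or more and 21 stayed below 2. Among the 10112 genes at 1 or more in that library, NPW stood at percentile 73.9 and the median member at percentile 13.5. The ratio of the deposited values, high over low c-Myc, had a median of 30.01 and ran from 5.71 to 528, with 10 members above 100-fold and 8 below 10-fold.

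**Figure D1:**
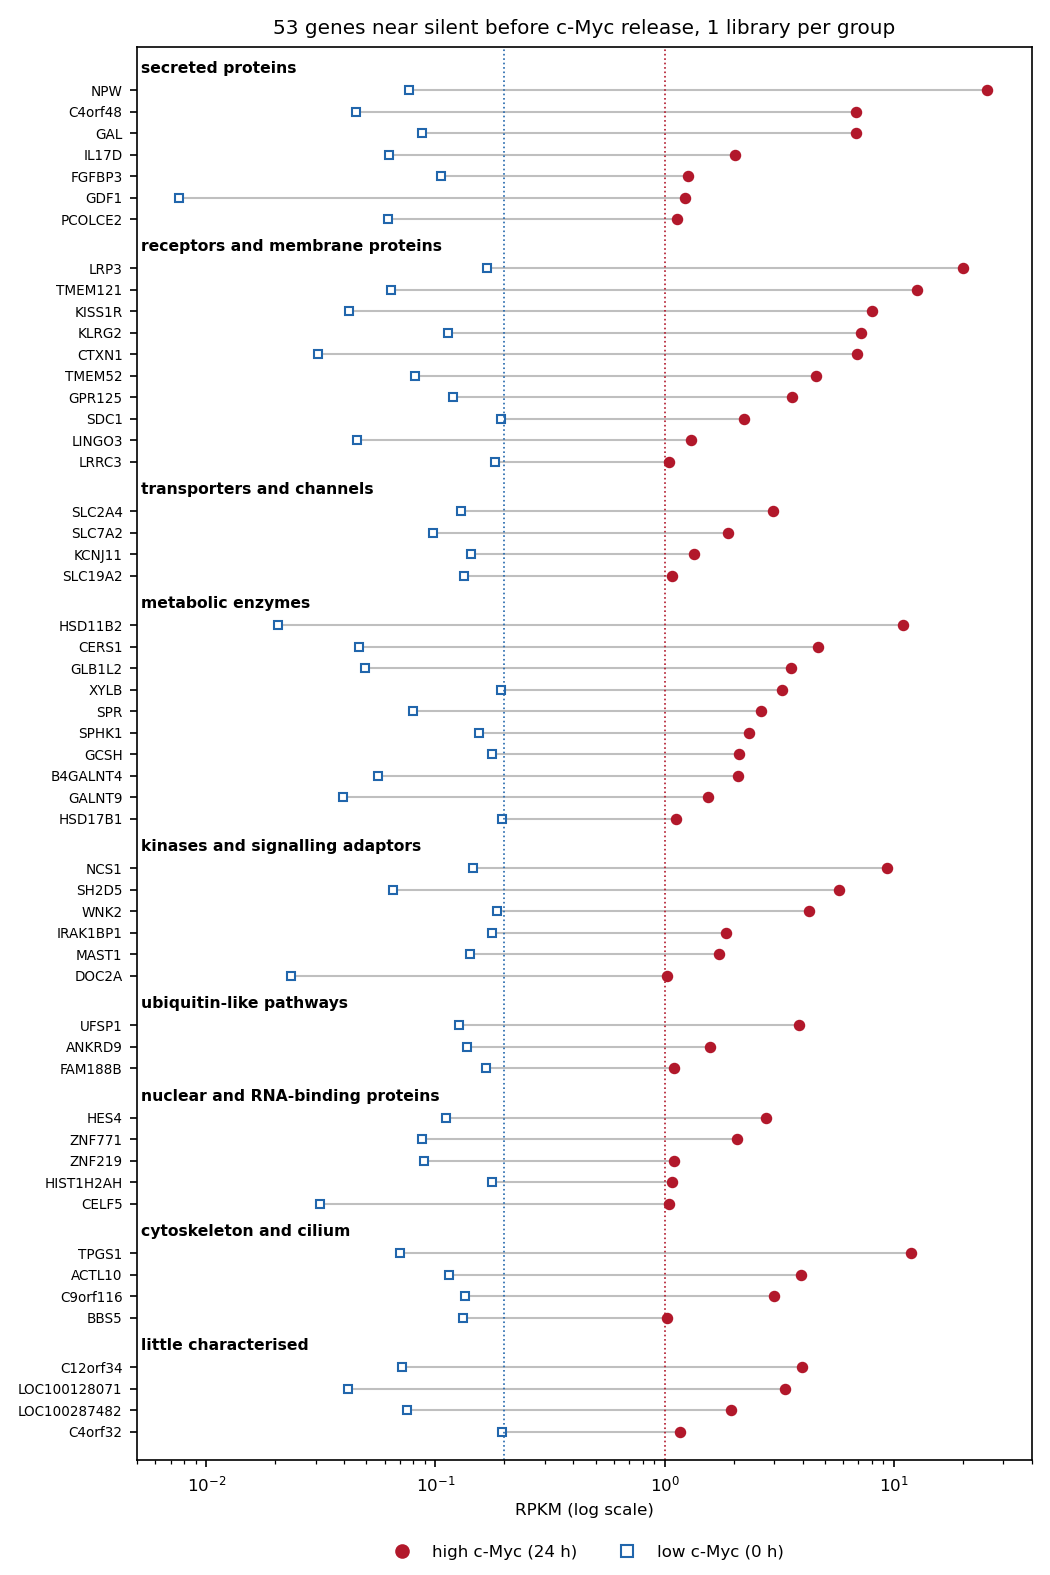
RPKM on a log axis for each of the 53 members in high c-Myc cells (filled circles) and in low c-Myc cells (open squares), grouped by the role of the protein, with dotted lines at the limits of 0.2 and 1. The highest circles belong to NPW at 25.6 and LRP3 at 19.95, and the lowest square to GDF1 at 0.00759.

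On the log2(RPKM + 0.5) scale all 53 members were higher by 2-fold or more in high c-Myc cells, as the limits of the rule make certain. The same held for 13.8% of all 19096 genes and for 24.9% of the 10272 expressed genes, those with a mean RPKM of 1 or more. The median log2 ratio was 2.22 over the members, 0 over all genes and 0.22 over expressed genes. Relative to the expressed genes' median, the members' median was 1.997 and 51 of 53 stayed past 2-fold. Of the 53 members, 34 passed the limit for expressed genes, and the other 19 had too low a mean.

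Scaling to RNA per cell by a single median, as done here, adds the same amount to every gene's log2 ratio. Synthetic RNAs added by cell number had a median log2 ratio of -2.56 (interquartile range -2.84 to -2.17 over 46 synthetic RNAs), so the same RPKM stood for more RNA per cell in high than in low c-Myc cells. Divided by that ratio, all 53 members were higher by 2-fold or more per cell, which the rule again fixes, as were 97.1% of expressed genes. The members' median ratio per cell, with no pseudocount, was 177-fold, from 33.6-fold for HSD17B1 to 3108-fold for HSD11B2. As log2 ratios the median was 7.46, with a range of 5.07 to 11.6. In the authors' renormalized columns, where the shift differed between genes, the median was 7.22 and the range 4.84 to 11.4.

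**Figure D2:**
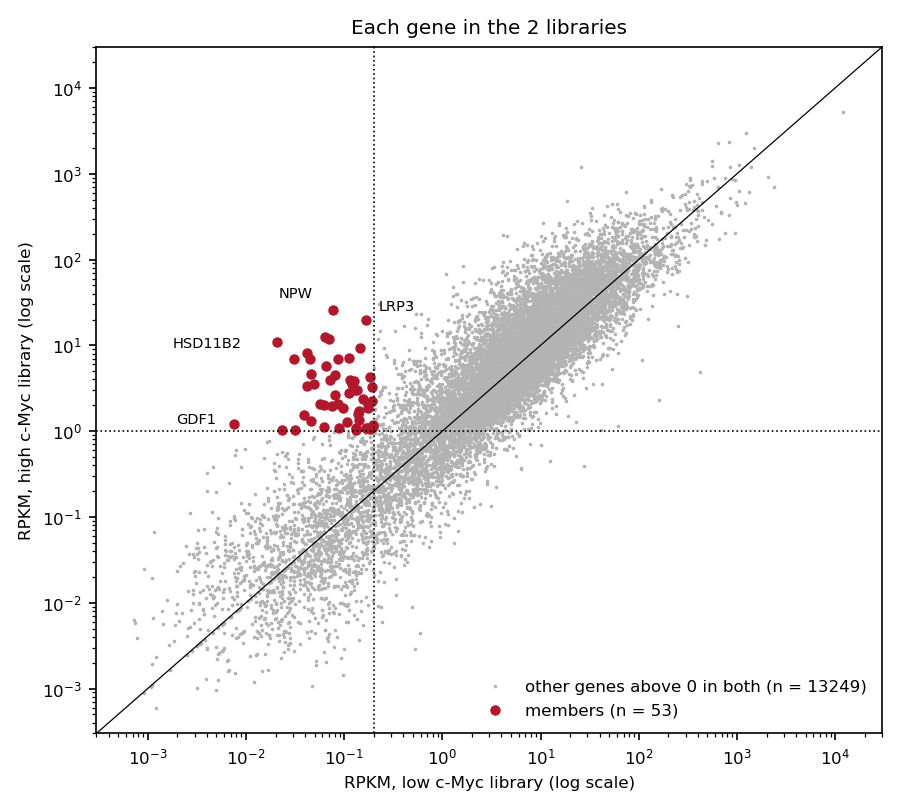
RPKM of each gene in high c-Myc cells (vertical, log axis) against low c-Myc cells (horizontal, log axis), with the diagonal and dotted lines at the limits. The 53 members fill the upper left box, 13249 other genes are in grey, and genes listed at 0 in either library and the 2 genes left out by the rule are not drawn.

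The near-silent state rested on few reads. By transcript length and depth, the 51 members with a known length had a median of about 585 reads in high c-Myc cells (44 to 7975) and 17 in low c-Myc cells (2 to 180), and 16 of them had fewer than 10 in low c-Myc cells. For 36 of the 51 the upper end of the 95% Poisson interval stayed below 0.2 in low c-Myc cells, and for 9 the lower end in high c-Myc cells fell below 1. In 30 members both intervals lay inside the limits. The lowest counting bound of a ratio, that of HIST1H2AH, was 2.76-fold. These intervals cover counting error only, since amplified copies are not independent molecules and there was no second library to show the spread between cultures.

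Members near the limits differed little from genes that missed them. Just inside the low limit lay C4orf32, at 1.17 in high and 0.196 in low c-Myc cells, HSD17B1 at 1.12 in high and 0.196 in low c-Myc cells, and SDC1 at 2.22 in high and 0.194 in low c-Myc cells. Just outside it lay TSKU, at 5.42 in high and 0.201 in low c-Myc cells, and PDHA2 at 1.79 in high and 0.203 in low c-Myc cells. Just inside the high limit lay DOC2A at 1.02 and BBS5 at 1.02, and just outside it TMEM238 at 0.975 and DRD4, a dopamine receptor, at 0.969.

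Secreted proteins gave the most abundant member. The lowest starting level, 0.00759 for GDF1 on about 2 reads, cannot be credited to them, since a CERS1 row held the same value. NPW (NM_001099456), the precursor of neuropeptide W, a peptide that acts on feeding and stress circuits in the brain, stood at an RPKM of 25.6 in high c-Myc cells, on about 2660 reads, against 0.0764 in low c-Myc cells, on about 8. That is a 334-fold ratio with a 95% counting interval of 165 to 756. Its receptors were not read beside it: NPBWR1 was listed at 0 in both libraries and NPBWR2 stood at 0.0379 in high and 0.0581 in low c-Myc cells. NPB, the related neuropeptide B, reached 0.215 in high c-Myc cells and was listed at 0 in low c-Myc cells.

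GAL, which encodes the neuropeptide galanin, repeated that picture at a lower level. It stood at 6.84 in high and 0.0873 in low c-Myc cells, a ratio of 78.4 (39.7 to 206). Of its receptors, GALR1 was listed at 0 in both libraries, GALR2 stood at 0.0146 in high and 0.0299 in low c-Myc cells, and GALR3 at 0.139 in high and 0 in low c-Myc cells. All 3 were therefore near silent in both. C4orf48, now named NICOL1, a small secreted protein, stood at 6.86 in high and 0.0448 in low c-Myc cells, where about 2 reads supported it, so its ratio of 153 has an interval of 42.0 to 1269.

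The other secreted members reached lower levels. IL17D, a cytokine of the interleukin 17 family, stood at 2.02 in high and 0.0626 in low c-Myc cells, while IL17A, IL17B and IL25 were listed at 0 in both and IL17C stood at 0.309 in high and 0.344 in low c-Myc cells. FGFBP3, a carrier of fibroblast growth factors, stood at 1.27 in high and 0.106 in low c-Myc cells, and its relatives FGFBP1 and FGFBP2 were listed at 0 in both. PCOLCE2, which speeds collagen processing, stood at 1.13 in high and 0.0622 in low c-Myc cells. Of the 31 neuropeptides and peptide hormones on a list of that family, 25 were below 0.2 in low c-Myc cells and 21 stayed so in both, and NPW and GAL were the only 2 among the members. By 2-fold, 3 were higher and 1 lower, with a median log2 ratio of 0. For this and the other family lists, the shares over all 19096 genes were 39.2% below 0.2 in low c-Myc cells, 37.5% below 0.2 in both libraries, 13.8% at least 2-fold higher and 5.68% 2-fold lower, with 0.278% being members.

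GDF1, a ligand of the TGF-beta family, cannot be counted apart from CERS1, a ceramide synthase. The 2 genes are known to be read as a single transcript that encodes both proteins. In the deposited tables the GDF1 row (NM_001492) and a second CERS1 row (NM_021267) held exactly the same values, 1.22 in high and 0.00759 in low c-Myc cells, on about 329 reads in high and 2 in low c-Myc cells. The main CERS1 row (NM_198207), a form that does not share this value, stood at 4.66 in high and 0.0462 in low c-Myc cells, a ratio of 100.9 (54.4 to 210). The 2 members are thus 1 locus, and the first listed start windows of both genes are the same 300 bases, with a GC content of 83.7%. The 34 TGF-beta and BMP ligands and antagonists on the list held 25 genes below 0.2 in low c-Myc cells, 6 higher by 2-fold and none lower (median log2 ratio 0), with GDF1 as the only member.

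Among receptors and membrane proteins the highest was LRP3 (NM_002333), a transmembrane protein related to the LDL receptor. It stood at 19.95 in high c-Myc cells, on about 7975 reads, against 0.168 in low c-Myc cells, on about 66, a ratio of 119 (93.1 to 153). Of the 14 genes of the LDL receptor family, 2 were at least 2-fold higher and 1 was 2-fold lower (median log2 ratio -0.00085), and LRP3 was the only member. Its close relative LRP10 was abundant in both libraries, at 58.1 in high and 91.1 in low c-Myc cells, and LRP12 stood at 1.11 in high and 1.03 in low c-Myc cells.

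KISS1R (NM_032551), the receptor for kisspeptin that drives release of gonadotropin-releasing hormone, was read without its ligand. It stood at 8.04 in high and 0.0418 in low c-Myc cells, a ratio of 192 (93.0 to 479), while KISS1 was listed at 0 in both. GPR125, an adhesion receptor now named ADGRA3, stood at 3.58 in high and 0.119 in low c-Myc cells, and its relative GPR124 at 17.0 in high and 6.25 in low c-Myc cells. The lectin-like gene KLRG2 stood at 7.16 in high and 0.113 in low c-Myc cells, whereas its relative KLRG1 stood at 0.180 in high and 0.489 in low c-Myc cells.

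TMEM121 (NM_025268), a membrane protein of little known function, stood at 12.6 in high and 0.0639 in low c-Myc cells, a ratio of 197 with no interval because its length could not be paired. CTXN1, a neuronal membrane protein, stood at 6.91 in high and 0.0307 in low c-Myc cells, on about 924 reads in high and 4 in low c-Myc cells, and its relatives CTXN2 and CTXN3 were listed at 0 in both. TMEM52 stood at 4.57 in high and 0.0811 in low c-Myc cells. LINGO3 stood at 1.31 in high and 0.0456 in low c-Myc cells, and LRRC3, another protein with leucine-rich repeats, at 1.05 in high and 0.182 in low c-Myc cells. SDC1, the heparan sulfate carrier that also marks plasma cells, stood at 2.22 in high and 0.194 in low c-Myc cells, while SDC2 was listed at 0 in both. On the list of 231 TMEM genes, 82 were below 0.2 in low c-Myc cells, 36 were at least 2-fold higher and 12 were 2-fold lower (median log2 ratio 0).

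The 4 transporters and channels stayed below an RPKM of 3. SLC7A2, a carrier of arginine and lysine, stood at 1.88 in high and 0.0975 in low c-Myc cells. Its relative SLC7A1 was the main form in both libraries, at 26.1 in high and 3.08 in low c-Myc cells. SLC19A2, a thiamine carrier, stood at 1.08 in high and 0.133 in low c-Myc cells, beside the folate carrier SLC19A1 at 54.7 in high and 1.61 in low c-Myc cells. In both families the abundant relative was also higher by 2-fold or more, while the third family member, SLC7A3 or SLC19A3, was listed at 0 in both.

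SLC2A4, the insulin-responsive glucose transporter of muscle and fat, stood at 2.98 in high and 0.129 in low c-Myc cells. Of the 3 other glucose transporters looked up, SLC2A1 stood at 20.5 in high and 22.6 in low c-Myc cells, SLC2A3 was lower at 1.499 in high and 18.8 in low c-Myc cells, and SLC2A2 was listed at 0 in both. KCNJ11, the pore of the ATP-sensitive potassium channel, stood at 1.34 in high and 0.142 in low c-Myc cells. Its regulatory partner ABCC8 stood at 0.0114 in high and 0.00390 in low c-Myc cells, and the other such partner, ABCC9, was listed at 0 in both, so of these 3 genes KCNJ11 alone exceeded 0.2. Among 96 potassium channel genes 69 were below 0.2 in low c-Myc cells and 68 stayed so in both, and 12 were at least 2-fold higher and none lower (median log2 ratio 0), with KCNJ11 as the only member. Among 363 solute carriers 174 were below 0.2 in low c-Myc cells, 165 stayed so in both, 52 were higher and 12 lower by 2-fold (median log2 ratio 0), and 3 were members.

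Of the 10 metabolic enzymes the highest was HSD11B2 (NM_000196), which inactivates cortisol in the kidney and so shields the mineralocorticoid receptor. It stood at 10.9 in high c-Myc cells, on about 2174 reads, against 0.0206 in low c-Myc cells, on about 4. Its ratio of 528 was the largest of the 53, with an interval of 208 to 1959. The enzyme that works in the opposite direction, HSD11B1, stood at 0.0264 in high and 0 in low c-Myc cells. The glucocorticoid receptor gene NR3C1 stood at 6.19 in high and 12.01 in low c-Myc cells, and the mineralocorticoid receptor gene NR3C2 at 0 in high and 0.00700 in low c-Myc cells. HSD17B1, which makes estradiol, stood at 1.12 in high and 0.196 in low c-Myc cells, the smallest ratio of the 53.

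The lipid enzymes of the list had relatives already read in low c-Myc cells. SPHK1, which makes sphingosine 1-phosphate, stood at 2.34 in high and 0.155 in low c-Myc cells, while SPHK2 stood at 32.9 in high and 7.11 in low c-Myc cells. CERS1 was read beside CERS2 (11.2 in high and 5.78 in low c-Myc cells), CERS4 (36.3 in high and 43.5 in low c-Myc cells), CERS5 (7.08 in high and 6.27 in low c-Myc cells) and CERS6 (3.83 in high and 2.11 in low c-Myc cells). CERS1 was therefore the fourth highest of the 6 ceramide synthase genes in high c-Myc cells, and none of these 4 relatives was 2-fold different.

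GCSH, the lipoate-bearing H protein of the glycine cleavage system, stood at 2.10 in high and 0.177 in low c-Myc cells. Its partner GLDC stood at 25.2 in high and 8.37 in low c-Myc cells, AMT at 6.10 in high and 13.9 in low c-Myc cells, and DLD at 10.4 in high and 8.44 in low c-Myc cells, so the partners differed in direction. GCSH has near-identical processed copies in the genome, and its value is uncertain for that reason. SPR, which completes tetrahydrobiopterin, stood at 2.63 in high and 0.0798 in low c-Myc cells, while GCH1, which begins that pathway, stood at 0.906 in high and 1.16 in low c-Myc cells and PTS at 1.13 in high and 1.82 in low c-Myc cells.

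The remaining enzymes act on sugars. XYLB, which phosphorylates xylulose, stood at 3.24 in high and 0.192 in low c-Myc cells. GLB1L2, a relative of lysosomal beta-galactosidase, stood at 3.55 in high and 0.0492 in low c-Myc cells, and GLB1 itself at 9.93 in high and 15.7 in low c-Myc cells. B4GALNT4 and GALNT9, which add N-acetylgalactosamine to glycoproteins, had RPKM values of 2.09 and 1.54 in high c-Myc cells and of 0.0562 and 0.0393 in low c-Myc cells, in that gene order. GALNTL4, the relative of GALNT9 now named GALNT18, stood at 23.4 in high and 0.533 in low c-Myc cells, above the low limit.

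**Figure D3:**
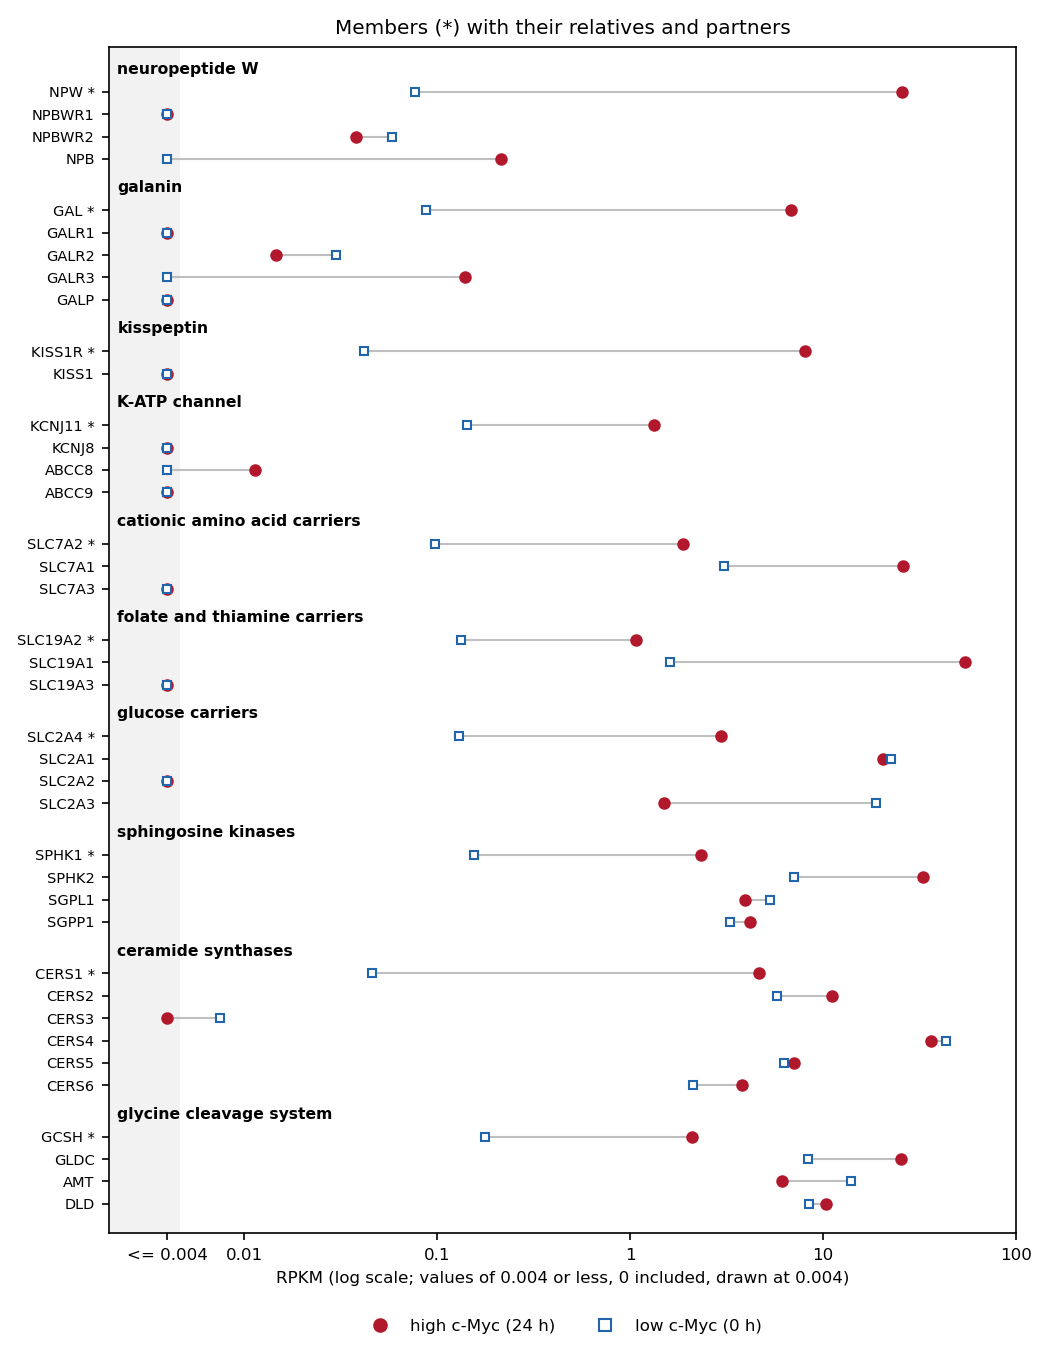
RPKM on a log axis in high c-Myc cells (filled circles) and in low c-Myc cells (open squares) for 10 members, marked with asterisks, and their relatives and partners, with values of 0.004 or less drawn at 0.004. The receptors of NPW and GAL, the ligand of KISS1R and the partners of KCNJ11 lie at or below 0.139 in both libraries, while SLC7A1, SLC19A1, SPHK2 and GLDC lie above 1 in both.

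Kinases and signalling adaptors included several genes of neurons. NCS1, a neuronal calcium sensor, stood at 9.32 in high and 0.146 in low c-Myc cells, and its relative HPCAL1 at 37.0 in high and 24.0 in low c-Myc cells. SH2D5, an adaptor with an SH2 domain, stood at 5.77 in high and 0.0655 in low c-Myc cells, a ratio of 88.1 (59.5 to 136). DOC2A, a calcium sensor of vesicle release, stood at 1.02 in high and 0.0235 in low c-Myc cells, on about 222 reads in high and 5 in low c-Myc cells, and DOC2B was listed at 0 in both. WNK2, a kinase that governs chloride cotransporters through STK39 and OXSR1, stood at 4.26 in high and 0.185 in low c-Myc cells. WNK1, the form most widely used, stood at 15.1 in high and 18.0 in low c-Myc cells, and STK39 at 1.92 in high and 1.67 in low c-Myc cells. MAST1, a microtubule-associated kinase, stood at 1.73 in high and 0.142 in low c-Myc cells, and IRAK1BP1, which binds the kinase IRAK1, at 1.85 in high and 0.176 in low c-Myc cells.

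In the ubiquitin-like pathways the partners were read at both times. UFSP1, a protease that matures the ubiquitin-like protein UFM1, stood at 3.86 in high and 0.127 in low c-Myc cells. Its relative UFSP2 stood at 2.78 in high and 2.80 in low c-Myc cells, UFM1 at 9.39 in high and 9.81 in low c-Myc cells and the E2 enzyme UFC1 at 20.3 in high and 18.96 in low c-Myc cells, each close to equal. ANKRD9, a substrate receptor of cullin ligases, stood at 1.58 in high and 0.137 in low c-Myc cells, and FAM188B, a deubiquitinase now named MINDY4, at 1.10 in high and 0.167 in low c-Myc cells.

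Nuclear and RNA-binding members were few and low. HES4, a transcriptional repressor of the Notch pathway, stood at 2.77 in high and 0.111 in low c-Myc cells, while HES1 stood at 4.74 in high and 15.9 in low c-Myc cells and HES6 at 9.51 in high and 3.37 in low c-Myc cells. Of the 22 Notch pathway genes on the list, 8 were at least 2-fold higher and 1 was 2-fold lower (median log2 ratio 0.25), and HES4 was the only member. The zinc finger genes ZNF771 and ZNF219 had RPKM values of 2.07 and 1.09 in high c-Myc cells and of 0.0875 and 0.0893 in low c-Myc cells, in that gene order. They were the only members among 508 ZNF genes, of which 98 were below 0.2 in low c-Myc cells, 59 were at least 2-fold higher and 42 were 2-fold lower (median log2 ratio -0.04). CELF5, an RNA-binding protein of neurons, stood at 1.04 in high and 0.0314 in low c-Myc cells, beside CELF1 at 17.6 in high and 14.8 in low c-Myc cells and CELF2, which was lower, at 16.8 in high and 36.8 in low c-Myc cells. HIST1H2AH, a histone gene, stood at 1.08 in high and 0.177 in low c-Myc cells, on about 44 reads in high and 7 in low c-Myc cells. Its value is uncertain, since histone genes have near-identical copies and their transcripts mostly end without poly(A), which the selection requires.

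Among the cytoskeletal and ciliary members, TPGS1 and BBS5 belong to complexes whose other subunits were read to differing degrees. TPGS1 (NM_033513), a subunit of the complex that adds glutamate chains to tubulin, stood at 11.8 in high and 0.0697 in low c-Myc cells, a ratio of 169.6 (85.8 to 394). Its partner subunits TPGS2 and TTLL1 had RPKM values of 14.7 and 3.74 in high c-Myc cells and of 6.47 and 4.88 in low c-Myc cells, in that gene order, while the subunit LRRC49 stood at 0.0200 in high and 0.0307 in low c-Myc cells. BBS5, a subunit of the BBSome that carries cargo to cilia, stood at 1.02 in high and 0.132 in low c-Myc cells, while BBS1, BBS2, BBS4 and BBS7 were above 1 in both libraries. The other 3 subunits on the list were below 1 in high c-Myc cells, TTC8 at 0.934 in high and 0.941 in low c-Myc cells, BBS9 at 0.433 in high and 0.5004 in low c-Myc cells and BBIP1 at 0.780 in high and 2.21 in low c-Myc cells. ACTL10, an actin-like gene, stood at 3.93 in high and 0.115 in low c-Myc cells, and C9orf116, a ciliary microtubule protein now named PIERCE1, at 2.997 in high and 0.134 in low c-Myc cells. The 4 little characterised genes were C12orf34 (now FAM222A) at 3.99 in high and 0.0711 in low c-Myc cells, LOC100128071 (FAM229A) at 3.34 in high and 0.0417 in low c-Myc cells, LOC100287482 (SMKR1) at 1.95 in high and 0.0750 in low c-Myc cells and C4orf32 (FAM241A) at 1.17 in high and 0.196 in low c-Myc cells.

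Across 104 relatives, partners, receptors and ligands of the members, listed from textbook knowledge once the members were known, most showed no 2-fold difference. That was also the usual outcome over all genes. Of these, 43 were below 0.2 in both libraries, 8 were at least 2-fold higher, 5 were 2-fold lower and 48 lay between. Over all 19096 genes, 37.5% were below 0.2 in both libraries, 13.8% were at least 2-fold higher and 5.68% were 2-fold lower. The median log2 ratio of the 104 was 0, as over all genes. Among the 31 members with listed relatives, 16 had a relative at an RPKM of 1 or more in low c-Myc cells and 10 had none at 0.2 or more.

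The members' transcripts were richer in G and C than those of other genes. Their median GC content was 61.8% (36.8% to 74.6% over 51 members), against 57.7% for the 258 genes with a value that went to between 0.2 and 1, 49.5% for the 6844 that stayed near silent and 50.3% for 9948 expressed genes. For 22 of the 24 genes of the opposite pattern, those below 0.2 after release and at 1 or more before it, the median was 50.6%. A GC content of 60% or more was found in 31 of the 51 members, or 60.8%. The share was 45.3% of the genes that went to between 0.2 and 1, 38.4% of other expressed genes at least 2-fold higher, 18.1% of expressed genes and 14.1% of genes near silent in both libraries. Within the 51 members the ratio went with GC content, with a Spearman's rho of 0.61, and the RPKM in high c-Myc cells likewise at 0.43. The points share their 2 libraries, and the limits of the rule bound both measures.

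The libraries as a whole showed the same relation between ratio and GC content. Among expressed genes the median log2 ratio was -0.36 in the lowest of 10 equal bins of GC content and 1.38 in the highest, and 24 of the 51 members fell in the range of the highest bin. After a correction for this trend the members' median log2 ratio was 1.68 in place of 2.22, and 39 of the 51 stayed past 2-fold. The 12 that did not were ZNF219 at 0.08, LINGO3 at 0.38, GDF1 at 0.41, HIST1H2AH at 0.67, LRRC3 at 0.68, SPHK1 at 0.77, ZNF771 at 0.78, MAST1 at 0.86, B4GALNT4 at 0.87, KCNJ11 at 0.97, GALNT9 at 0.98 and DOC2A at 0.99. NPW at 4.15, NCS1 at 3.71, LRP3 at 3.59 and HSD11B2 at 3.51 had the highest corrected log2 ratios. The part of GC content in the members' ratios beyond this correction was not tested.

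**Figure D4:**
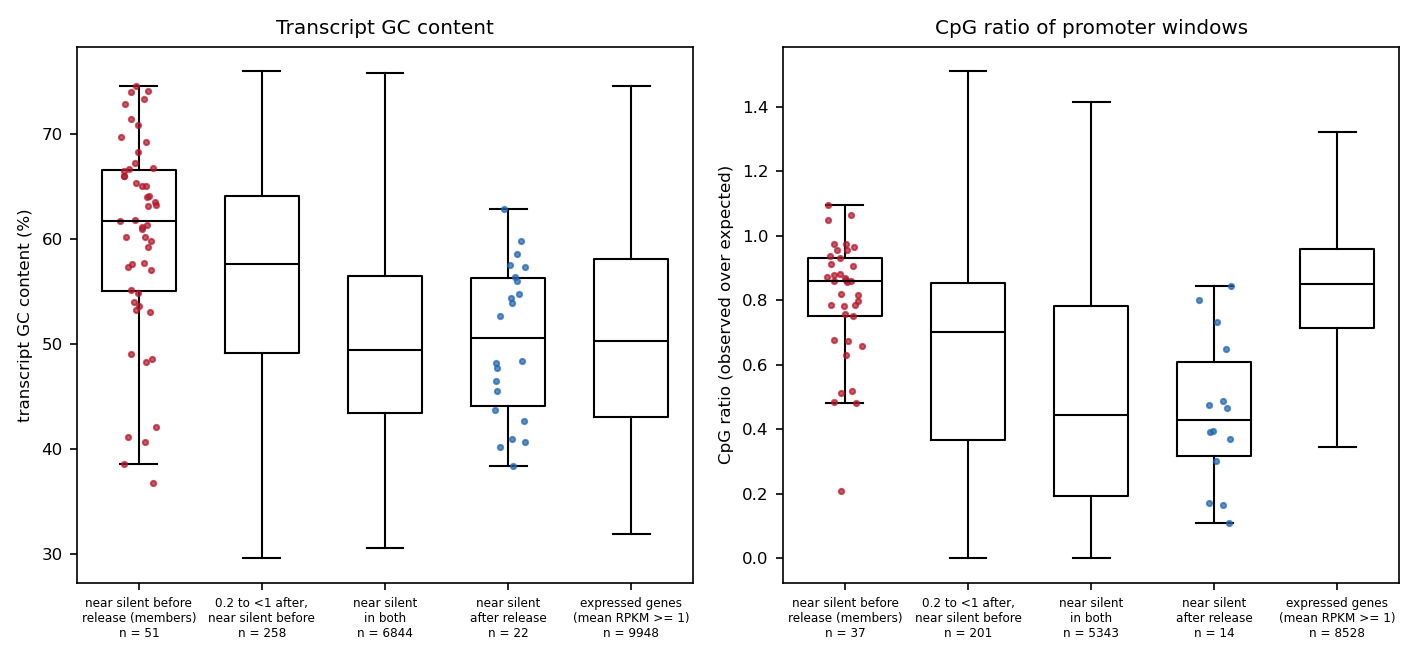
Transcript GC content in percent (left) and CpG ratio of the 300-base promoter window (right) for 5 classes of genes, as boxes of the median and quartiles with whiskers to the last value within 1.5 times the interquartile range, and with points for the 2 small classes. The members have the highest median GC content, 61.8%, and a median CpG ratio of 0.860, near the 0.850 of expressed genes and above the 0.443 of genes near silent in both libraries.

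Member promoters were rich in CpG, and were too few to place their share with the E-box letters above or below that of other genes. Promoter windows were found for 37 of the 53 members, with a median GC content of 72.7% and a median ratio of observed to expected CpG of 0.860. The window shared by GDF1 and CERS1 was counted for each of them. That ratio was 0.850 for 8528 expressed genes, 0.701 for 201 genes that went to between 0.2 and 1, 0.443 for 5343 genes near silent in both libraries and 0.430 for 14 genes of the opposite pattern. CACGTG, which reads the same on both strands and was the only motif searched, was in the window of 2 of the 37 members, or 5.41% (exact binomial 95% interval 0.661% to 18.2%). The share was 14.3% of other expressed genes at least 2-fold higher, 11.4% of genes that went to between 0.2 and 1, 10.8% of expressed genes, 6.16% of genes near silent in both libraries and 0 of the 14 genes of the opposite pattern. It was 7.43% of all 27305 genes in the promoter table, which includes genes not measured here. Of the runs printed above, LRP3 held it at position -64 and C9orf116 at -45 from the start, while NPW, with a CpG ratio of 0.486, and the shared GDF1 and CERS1 window, with 0.956, did not hold it. With any listed window of a gene the count was 4 of 37, or 10.8%, IL17D and GALNT9 being added, against 18.3% of other expressed genes at least 2-fold higher, 13.4% of expressed genes, 8.77% of all genes in the table and 7.52% of genes near silent in both libraries. These are letters in a window, and no binding was measured here.

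Several members overlapped a measured gene on the opposite strand. In GENCODE release 29, 13 of the 53 overlapped a measured gene on the opposite strand, and in 10 of these that gene had a mean RPKM of 1 or more. In 5 cases it was also at least 2-fold higher: MRPS2 beside C9orf116 (153 in high and 31.3 in low c-Myc cells), DCTPP1 beside ZNF771 (107 in high and 11.2 in low c-Myc cells), INO80E beside DOC2A (75.1 in high and 22.2 in low c-Myc cells), C9orf129 beside WNK2 (46.5 in high and 15.7 in low c-Myc cells) and HOOK2 beside MAST1 (10.4 in high and 3.20 in low c-Myc cells). The libraries kept the strand, but no source used here says whether the counting used it, so reads of these members and of their partners cannot be told apart. In the other 5 of the 10 the partner was not 2-fold different: NECAB3 beside ACTL10, TECPR2 beside ANKRD9, PRPSAP1 beside SPHK1, PHIP beside IRAK1BP1 and ARHGEF40 beside ZNF219. LRP3 overlapped SLC7A10, which was at 0 in high and 0.00499 in low c-Myc cells. Over all genes, 10272 of 19096 had a mean RPKM of 1 or more, and 24.9% of these were at least 2-fold higher. No count of neighbours of other genes is given here, so nothing about the members is read from these counts or the next.

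Some members start close to another measured gene. For 5 members a measured gene on the opposite strand started within 1 kb. ZNF598 beside NPW stood at 101.2 in high and 14.0 in low c-Myc cells, and WHSC2 beside C4orf48 at 57.4 in high and 11.0 in low c-Myc cells. ISG15 beside HES4 stood at 1983 in high and 1479 in low c-Myc cells. HIST1H2BK beside HIST1H2AH stood at 20.4 in high and 30.9 in low c-Myc cells, and C16orf92 beside DOC2A was listed at 0 in both. On the same strand, 13 members began within 5 kb after another measured gene. In 4 of these cases that gene was at least 2-fold higher by the log2(RPKM + 0.5) scale, among them TIMM44 before CTXN1 at 72.8 in high and 9.59 in low c-Myc cells. COPE, at 269 in high and 132 in low c-Myc cells, was counted for both GDF1 and CERS1, which are 1 locus. The upstream neighbours of LRP3, TPGS1, TMEM52, GCSH and ACTL10 stood at 0.105 or less in both libraries. HSD11B2, KISS1R, GAL, NCS1 and TMEM121 had no measured gene overlapping them or near their starts by these 2 measures. Genes that lie after the ends of the members were not looked up.

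Most members with several listed transcripts showed the pattern in each. Of the 53 genes 39 had a single row. The other 14 had 18 further rows, of which 16 also met both limits. The exceptions were a GALNT9 row at 0.952 in high and 0.0255 in low c-Myc cells and a CELF5 row at 0.946 in high and 0.0388 in low c-Myc cells, both short of the high limit alone. By position, 9 of the 53 lie on chromosome 19, or 17.0%, against 7.15% of all measured genes matched to GENCODE, and GDF1 and CERS1 of these 9 are 1 locus. Among genes with a promoter window the share on chromosome 19 was 16.2% of members and 14.5% of other expressed genes at least 2-fold higher.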

How the data were processed

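Poly(A) RNA of P493-6 cells was sequenced from 1 library per group. Per the labels' protocols, the ERCC ExFold synthetic RNAs went in by cell number, and strand was kept by dUTP. Bowtie and build hg18 are named in the submitters' processing notes. The sources used here do not say how reads were counted, filtered or assigned to a strand. The authors deposited RPKM values per RefSeq transcript and, per the file headers, RPKM renormalized to the synthetic RNAs, used only as an alternative. The tables held 34194 transcript rows with 19096 symbols and 92 synthetic RNA rows.

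Log2 ratios used a pseudocount of 0.5, and fold ratios none. A log2 ratio of 1 or more counted as higher. Per-cell ratios subtracted the median over 46 synthetic RNAs. With 1 library per group no test between conditions was made, so no p-value is given. Approximate reads were RPKM times GENCODE release 29 transcript length times depth, taken from the steps of low values (46.5% of low values in high and 49.0% in low c-Myc cells came within 0.05 of whole reads, where 10% would by chance), and the lengths are not the authors'. Intervals are exact at 95%. The GC correction subtracted medians of 20 GC bins over expressed genes. Promoter windows came from RefSeq (GRCh38.p14), the first listed per gene. The members, lists and roles were chosen with earlier results of these data known. All members are named, as the rule for named genes asks at 60 or fewer. The fixed lists were those whose counts the text gives. Only the depth estimate and the 2-fold calls were tested on simulated data. Those data were built with the same transcript lengths, so they do not test the use of lengths other than the authors'. Python 3.11.15, numpy 2.4.6, pandas 2.3.3, scipy 1.17.1 and matplotlib 3.10.9 were used.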

Additional observations from a re-analysis of the deposited data

How the results depend on the processing

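The number of members followed the limits. It was 27 with a low limit of 0.1, 190 with 0.5, 122 with a high limit of 0.5 and 32 with a high limit of 2. It was 723 in the authors' renormalized columns, with all 53 among them. An alternative chosen after seeing the data, both counting intervals inside the limits, left 30. Summing transcripts gave 51, of which 45 were members, the row with the highest low c-Myc RPKM gave 52, and scaling to the same RPKM sum without synthetic RNAs gave 41, all of them members. The members' median log2 ratio was 3.70 with a pseudocount of 0.1, 1.55 with 1, 1.997 when centred and 1.68 after GC correction. The count of members past 2-fold was 53, 43, 51 and 39 under those settings, and it was 53 per cell under each of 3 alternatives. The share of genes past 2-fold was 13.8% with no filter, 26.6% with a pseudocount of 0.1 and 23.1% with 1. The share of member promoters with CACGTG was 5.41% in the bases before the start and 10.8% in any listed window, an alternative also chosen after seeing the data. No paired analysis and no leaving out of a library was possible because each group held 1 library. About 17 reads at the median in low c-Myc cells limit how well each ratio is known.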

Other observations

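Several gene families of other tissues were near silent in both libraries more often than the 37.5% of all genes that were. All 39 HOX genes, which set body position, were below an RPKM of 0.2 in both libraries, with sums of 0.254 in high and 0.253 in low c-Myc cells. So were 51 of 55 keratin genes, 35 of 43 collagens, 24 of 26 cancer-testis genes, 24 of 29 WNT and Frizzled genes, 30 of 43 forkhead genes, 17 of 23 claudins and 16 of 19 SOX genes. Of 25 FGF, PDGF and VEGF growth factors 19 were, and of 25 synapse and dendrite scaffolds 12 were. None of these lists held a member, and 0.278% of all genes are members, so nothing is read from that. The 13 tyrosine kinases of the CSK and SRC type held none either, and 1 was at least 2-fold higher and 2 were 2-fold lower. Among 127 LINC and LOC symbols, 97 were below 0.2 in low c-Myc cells and 2 were members.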
